A study of Homo sapiens with 6 samples.

Results

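The genes described here are the cytosolic and mitochondrial chaperones of the heat shock families: HSP70, HSP90, the small heat shock proteins, the BAG proteins, the chaperonins, their cofactors and a pair of heat shock transcription factors. They were taken by gene symbol from a list of 51 genes. The gene table held 50 of them, 49 by symbol and HSPB11 under its current symbol IFT25, out of 20668 genes in all, and all 50 were among the 16403 genes that passed the filter on low counts. HSPA6, a strictly stress-inducible HSP70 gene, was not in the gene table, and the transcript it has in the transcript files carried 0 reads in each of the 6 libraries. A count of 0 in libraries of this depth allows up to 3 counts each.

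RNA-seq was done on 6 libraries of untreated SH-SY5Y cells, an established human line derived from a neuroblastoma, a tumour of the sympathetic lineage. Of these, 3 came from knockout (KO) cells in which DNAJC12 had been disrupted with CRISPR/Cas9 and 3 from wild-type (WT) cells. The position of the guide RNA, the number of clones and the handling of the WT cells during editing are not given in the labels, nor is it said whether libraries of a genotype came from separate cultures, and p-values therefore reflect no more than library-to-library variation, part of which may be technical. The series description gives invasion of these cells as the property under study.

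Heat shock proteins bind unfolded or partly folded proteins. HSP70 binds short exposed stretches and works in an ATP cycle that J-domain proteins such as DNAJC12 start and that nucleotide exchange factors, among them HSP110-type proteins, BAG proteins and HSPBP1, reset. HSP90 completes the folding of kinases and steroid receptors that HSP70 passes on, small heat shock proteins hold unfolded chains without ATP, and chaperonins enclose proteins such as actin and tubulin in a ring. In many cell types loss of folding capacity releases HSF1, which binds heat shock elements, inverted repeats of GAA, in the promoters of these genes. DNAJC12 itself serves the aromatic amino acid hydroxylases, among them those that start the synthesis of catecholamines and serotonin.

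The libraries held 19845788, 21405492 and 21869659 counts in KO replicates 1, 2 and 3 and 20071795, 19321842 and 19418072 in WT replicates 1, 2 and 3. Levels are given as CPM, counts scaled to a common library size, after TMM scaling, and fold changes as log2 values for KO over WT, ± SE, from edgeR's quasi-likelihood fit over all genes with Benjamini-Hochberg adjustment. DNAJC12 measured 5.91, 5.87 and 4.85 CPM in the KO libraries and 23.0, 21.4 and 20.0 CPM in the WT libraries, a change of -1.95 ± 0.13 (edgeR adjusted p = 1.25e-06). The 3 KO values all lay below the 3 WT values, and part of the RNA remained. All 8 markers of sympathetic neuroblastoma cells looked at were present, with a summed level of 3584 to 3710 CPM in KO and 4211 to 4391 CPM in WT. Summed markers came to 1.42 to 1.61 CPM in KO and 0.797 to 1.86 CPM in WT for epithelial cells (2 of 3 in the table, with the keratin gene KRT14 not among them), to 1.26 to 1.55 CPM in KO and 1.19 to 2.21 CPM in WT for blood cells (2 of 3, without CD3E) and to 5.99 to 6.40 CPM in KO and 5.46 to 6.31 CPM in WT for Schwann cells (3 of 3). Neither of the endothelial markers was in the table. The 3 fibroblast markers, of which neuroblastoma cells can also express some, summed to 240 to 283 CPM in KO and 271 to 298 CPM in WT, with COL1A1 higher and LUM lower in each KO library than in each WT library, and their part in the results below was not tested. In RNA from whole cultures, fewer cells of a type and less RNA per cell cannot be told apart.

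Of the 50 chaperone genes 9 passed an adjusted p of 0.05, 4 higher and 5 lower in KO, and 41 did not. That is 18%, against 26.0% of all genes tested, with 14.5% of all genes higher and 11.5% lower. The 4 that rose were the small heat shock protein genes HSPB6 and CRYAB, the co-chaperone gene BAG2 and the divergent HSP70 gene HSPA12A. The 5 that fell were HSPA1A and HSPA1B, which encode the stress-inducible HSP70, HSPB1 and HSPB8 of the small heat shock proteins, and the HSP70 nucleotide exchange factor gene HSPBP1. Only 2 of the 50, HSPB6 and CRYAB, changed by over 2-fold and passed the threshold, against 1515 of the 16403 genes tested. The median log2 fold change was -0.03 over the 50 and 0.00 over all genes (0.00 over the 50 without KO replicate 1 and -0.11 without KO replicate 2), and the median size of change was 0.17 over the 50, 0.22 over all genes and 0.16 over genes of more than 10 CPM. KO and WT values did not overlap at all for 17 of the 50 (6 higher and 11 lower in KO), against 41.7% of all genes.

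**Figure D1:**
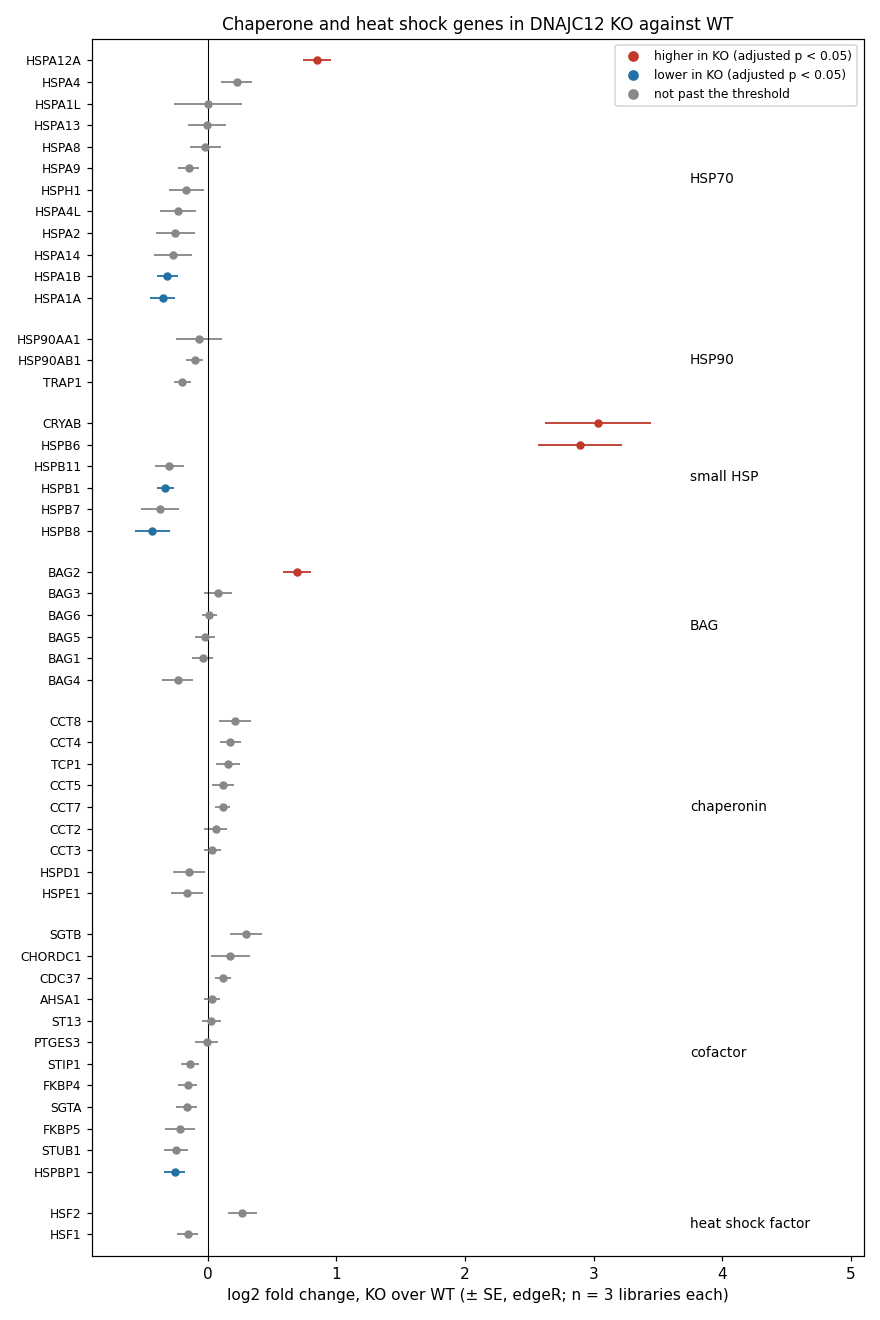
Log2 fold change of 50 chaperone genes in KO over WT (x axis; points are edgeR estimates from 3 libraries each, bars ± SE), grouped by family down the page. The points of CRYAB (3.03) and HSPB6 (2.90) lie far to the right of all others, and the chaperonins and HSP90 hold no coloured point.

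The small heat shock protein group had 6 genes measured, with HSPB11 among them by its older symbol alone. Of the 6 genes, 2 rose, 2 fell and the rest missed the threshold (66.7% called, against 26.0% of all genes). The median log2 fold change of the 6 was -0.32. The KO values of all 6 were wholly above (2 genes) or wholly below (4 genes) the WT values, against 41.7% of all genes with such a separation. HSPB6 (ENSG00000004776) lies on chromosome 19 from 35754566 to 35757029 and CRYAB (ENSG00000109846) on chromosome 11 from 111908564 to 111923740 in GRCh38.p14, with all gene positions taken from RefSeq. HSPB6 encodes HSP20, a protein best known from muscle. It measured 5.70, 5.68 and 6.53 CPM in the KO libraries and 1.26, 0.660 and 0.460 CPM in the WT libraries, or 5.97 ± 0.483 CPM in KO and 0.793 ± 0.416 CPM in WT (SD, n = 3 each), a change of 2.90 ± 0.32 (edgeR adjusted p = 7.6e-05). Every KO library was more than 4 times as high as the highest WT library. CRYAB, the alpha-B-crystallin gene of lens and muscle, measured 2.55, 2.46 and 2.89 CPM in KO and 0.484, 0.152 and 0.307 CPM in WT (3.03 ± 0.41, edgeR adjusted p = 0.000301). These levels rest on few reads. HSPB6 had 370 counts in the 3 KO libraries and 48 in the 3 WT libraries, a ratio per library size of 7.18 (95% exact binomial interval 5.31 to 9.92, for counting error only). CRYAB had 163 counts in KO and 19 in WT, a ratio of 7.99 (4.96 to 13.6). Both genes overlap others on the opposite strand (an antisense RNA for HSPB6, HSPB2 and C11orf52 for CRYAB), and no source used here gives the strand setting of the quantification.

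HSPB1, which encodes HSP27, moved the other way (ENSG00000106211, chromosome 7, 76302673 to 76304292). It measured 289, 263 and 273 CPM in the KO libraries and 343, 328 and 368 CPM in the WT libraries, a fall of 0.33 ± 0.07 on the log2 scale (edgeR adjusted p = 0.00367). The highest KO library lay below the lowest WT library. HSPB8 (ENSG00000152137, chromosome 12, 119178931 to 119194746), the partner of BAG3 in the delivery of misfolded proteins to autophagy, measured 12.4, 10.6 and 10.7 CPM in KO and 12.9, 15.1 and 17.6 CPM in WT (-0.43 ± 0.14, edgeR adjusted p = 0.042). Its groups came close to each other. The call was lost without KO replicate 2 (edgeR adjusted p = 0.0824), without KO replicate 3 (0.145) and without WT replicate 2 (0.0988) or 3 (0.145). It was also lost by limma-voom (0.0522) and with gene counts built from the transcript files (0.146 summed and 0.219 length-corrected). Those counts, built through GENCODE release 29, held 91.3% to 100% of the HSPB8 counts of the gene table in KO and 82.9% to 100% in WT. HSPB7, best known from heart and skeletal muscle, measured 64.9, 39.2 and 50.9 CPM in KO and 67.0, 66.3 and 67.4 CPM in WT. The WT libraries were nearly equal while the KO libraries spread 1.65-fold, and the change of -0.37 ± 0.15 did not pass (edgeR adjusted p = 0.0889), though it did without KO replicate 1 (-0.57, adjusted p = 0.00214), by DESeq2 (0.038) and with a replicate block (0.0202). HSPB11, now named IFT25 for its place in the transport complex of cilia, measured 20.9, 25.4 and 26.0 CPM in KO and 27.0, 29.3 and 32.8 CPM in WT (-0.30 ± 0.12, edgeR adjusted p = 0.0868), and it passed with library size alone (0.0377) and with a replicate block (0.0374).

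Levels of different genes were compared per length, as length-corrected TPM values summed over a gene's transcripts. TPM values were not TMM-scaled, and the TMM factors were 0.971 to 0.990 in KO and 1.01 to 1.03 in WT. With library size alone the median log2 fold change of all genes was -0.06, against 0.00 with TMM. TPM can thus set KO lower against WT than the fold changes do, as for the chaperonin gene CCT3 (0.03, but 330 TPM in KO and 338 TPM in WT). In TPM the 6 small heat shock protein RNAs together came to 783 ± 21.3 in KO and 1028 ± 45.6 in WT (SD, n = 3 each), with no overlap between the libraries. HSPB1 was 84.3% of that sum in KO and 85.5% in WT, and HSPB11 came to 66.7 ± 7.99 TPM in KO and 87.0 ± 7.44 TPM in WT. HSPB6 reached 6.19 ± 0.508 TPM in KO against 0.867 ± 0.459 TPM in WT, and CRYAB 4.73 ± 0.536 TPM in KO against a WT level that was listed at 0 in replicate 2, where the gene table has 3 counts. The members with the largest fold changes were the lowest of the family, while HSPB1, the highest, stood at 660 ± 18.5 TPM in KO and 878 ± 40.8 TPM in WT.

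**Figure D2:**
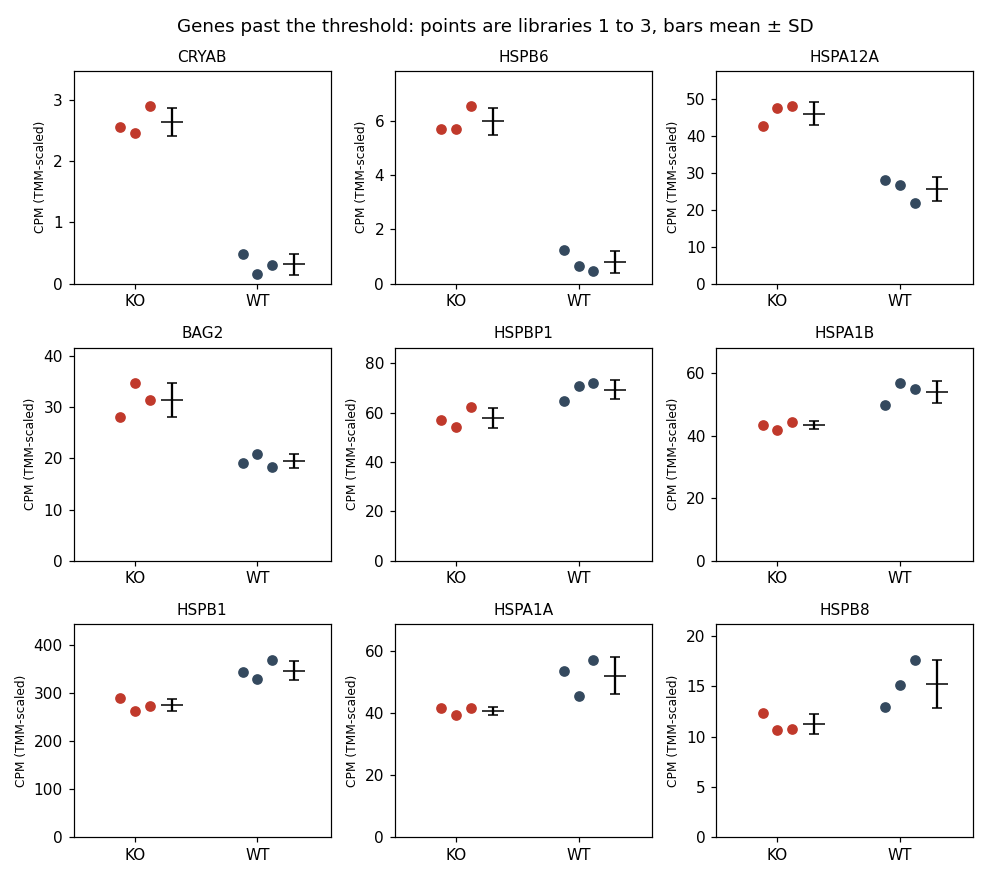
CPM after TMM scaling (y axes, starting at 0) of the 9 genes past the threshold, 1 panel a gene, with KO left and WT right, 1 point a library and bars for the mean ± SD. In each panel the 3 KO points lie wholly above or wholly below the 3 WT points, with the widest gaps for CRYAB and HSPB6 and the narrowest for HSPB8.

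The 250 bases before the transcription start of HSPB6, HSPB1 and BAG2 are shown because these genes passed the threshold in opposite directions and each window holds an inverted pair of heat shock element units, GAANNTTC or TTCNNGAA (both motifs read the same on either strand and can overlap each other by their shared unit). The sequences are from RefSeq on GRCh38.p14, 5′ to 3′ on the gene's strand, at chr19:35757030-35757279 (minus strand) for HSPB6, chr7:76302423-76302672 (plus strand) for HSPB1 and chr6:57172076-57172325 (plus strand) for BAG2. Capitals mark the motif.
HSPB6: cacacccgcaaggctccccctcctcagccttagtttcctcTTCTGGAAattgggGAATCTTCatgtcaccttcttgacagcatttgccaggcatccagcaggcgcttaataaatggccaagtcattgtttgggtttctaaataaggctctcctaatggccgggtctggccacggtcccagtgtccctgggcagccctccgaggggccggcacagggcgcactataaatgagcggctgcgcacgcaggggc
HSPB1: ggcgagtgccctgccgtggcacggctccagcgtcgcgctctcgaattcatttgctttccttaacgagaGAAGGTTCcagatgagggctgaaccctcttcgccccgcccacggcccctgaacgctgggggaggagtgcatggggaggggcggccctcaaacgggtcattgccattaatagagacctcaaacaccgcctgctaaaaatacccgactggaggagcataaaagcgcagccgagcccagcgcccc
BAG2: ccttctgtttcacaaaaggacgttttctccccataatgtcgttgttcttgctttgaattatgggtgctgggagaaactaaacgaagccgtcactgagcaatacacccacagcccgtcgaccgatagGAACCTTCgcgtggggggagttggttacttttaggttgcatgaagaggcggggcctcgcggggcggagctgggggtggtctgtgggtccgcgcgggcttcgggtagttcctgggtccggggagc
HSPB6 holds 2 pairs that begin 210 and 196 bases before the start, HSPB1 has 1 at 182 and BAG2 has 1 at 124. A match is a string in the sequence and no measurement of HSF1 binding.

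The HSP70 family had 1 gene higher, 2 lower and 9 that did not pass (25% called, near the 26.0% of all genes). The median log2 fold change was -0.16, but -0.05 without KO replicate 1 and -0.24 without KO replicate 2. HSPA12A (ENSG00000165868, chromosome 10, 116671192 to 116850747), a distant member with a divergent ATPase domain, measured 42.6, 47.5 and 48.0 CPM in the KO libraries and 28.2, 26.7 and 21.9 CPM in the WT libraries. The KO libraries were all higher, by 0.85 ± 0.11 (edgeR adjusted p = 0.000203). With gene counts built from the transcript files the change had the same sign, but did not pass (0.66, adjusted p = 0.0628 summed, and 0.73, adjusted p = 0.0795 length-corrected). Those counts rest on transcripts in GENCODE release 29, which held 49.8% to 66.0% of the HSPA12A counts of the gene table in KO and 51.1% to 79.4% in WT. ENO4 and an antisense RNA overlap HSPA12A on the opposite strand.

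HSPA1A and HSPA1B lie near each other on chromosome 6, at 31815543 to 31817942 and 31827738 to 31830254, and encode nearly the same protein, so reads can be split between them. HSPA1A measured 41.7, 39.4 and 41.6 CPM in KO and 53.7, 45.5 and 57.3 CPM in WT (-0.35 ± 0.10, edgeR adjusted p = 0.0213). HSPA1B measured 43.6, 41.9 and 44.5 CPM in KO and 50.0, 56.9 and 55.1 CPM in WT (-0.32 ± 0.08, edgeR adjusted p = 0.0152). Their KO libraries agreed within 1.06-fold and lay below all WT libraries. Summed into 1 feature, which removes the question of how reads were split, the pair fell by 0.33 ± 0.07 (edgeR adjusted p = 0.00482), and in TPM it came to 47.4 ± 0.899 in KO and 62.6 ± 2.09 in WT (SD, n = 3 each). Taken apart, HSPA1A did not pass without KO replicate 3 (adjusted p = 0.0698), WT replicate 1 (0.0768) or WT replicate 3 (0.0867), nor with length-corrected counts (0.0617), and HSPA1B did not pass without KO replicate 3 (0.0541) or WT replicate 2 (0.0757).

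The windows before both genes are shown because the pair fell together and shares its promoter sequence as well. They lie at chr6:31815293-31815542 and chr6:31827488-31827737, both on the plus strand of GRCh38.p14 (RefSeq), with capitals for the heat shock element pair.
HSPA1A: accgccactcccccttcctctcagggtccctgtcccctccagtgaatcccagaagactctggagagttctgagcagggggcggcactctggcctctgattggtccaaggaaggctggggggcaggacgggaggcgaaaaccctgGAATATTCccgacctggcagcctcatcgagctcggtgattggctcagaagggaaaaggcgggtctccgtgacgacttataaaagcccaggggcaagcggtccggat
HSPA1B: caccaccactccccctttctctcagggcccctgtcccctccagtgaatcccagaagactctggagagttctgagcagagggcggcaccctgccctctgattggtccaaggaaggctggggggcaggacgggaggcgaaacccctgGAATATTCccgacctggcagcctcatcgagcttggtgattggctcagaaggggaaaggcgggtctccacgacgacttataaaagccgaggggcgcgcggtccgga
Aligned to each other, the 250 bases had 235 identities, 14 mismatches and 2 gap columns (93.6% identity). Each holds the same string, 106 bases before the start of HSPA1A and 105 before that of HSPA1B.

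HSPA8, the constitutive HSP70 of the cytosol, had 76.1% of the family's summed TPM in KO and 74.9% in WT, a sum that misses part of HSPA12A and HSPA9 (52.8% to 60.8% of HSPA9 counts held in KO and 55.1% to 60.9% in WT). It measured 1190, 1551 and 1354 CPM in KO and 1152, 1358 and 1640 CPM in WT. The groups overlapped almost wholly, and the change of -0.02 ± 0.12 did not pass (edgeR adjusted p = 0.935). The other 8 HSP70 genes that did not pass had log2 fold changes between -0.27 and 0.22. They were HSPA9 of mitochondria, HSPA13 of the endoplasmic reticulum, the ribosome-associated HSPA14, HSPA1L and HSPA2, which are best known from the testis, and the HSP110-type exchange factors HSPA4, HSPA4L and HSPH1. HSPA4 had 117, 175 and 136 CPM in KO and 120, 119 and 128 CPM in WT. The HSP110 gene HSPH1 had 91.7, 144 and 117 CPM in KO and 124, 132 and 142 CPM in WT. KO replicate 1 was the lowest and KO replicate 2 the highest KO library for both, and leaving these out changed calls in this family. Without KO replicate 1 HSPA4 passed (0.35, adjusted p = 0.0206), and without KO replicate 2 HSPH1 (-0.34, adjusted p = 0.0323), HSPA14 (-0.44, 0.0253) and HSPA9 (-0.22, 0.0489) did.

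None of the 3 HSP90 genes passed by edgeR, 1 of them (TRAP1) had an unadjusted p under 0.05, and DESeq2 and limma-voom each called that gene. HSP90AB1, the constitutive cytosolic form, measured 1419, 1665 and 1539 CPM in KO and 1584, 1655 and 1726 CPM in WT (-0.10 ± 0.07, edgeR adjusted p = 0.307). HSP90AA1, the inducible form, measured 522, 958 and 714 CPM in KO and 670, 769 and 867 CPM in WT (-0.07 ± 0.18, edgeR adjusted p = 0.819). Its KO libraries spread 1.84-fold and enclosed all WT libraries, which spread 1.29-fold. TRAP1, the HSP90 of mitochondria, was tighter, with 139, 125 and 127 CPM in KO and 151, 145 and 153 CPM in WT. The TRAP1 groups did not overlap, and its change of -0.20 ± 0.07 had an edgeR adjusted p of 0.0512. TRAP1 passed without KO replicate 1 (0.0181), by DESeq2 (0.0381) and limma-voom (0.0454), with DESeq2 size factors (0.0484) and with library size alone (0.0194). In TPM the 3 HSP90 genes summed to 1201 ± 163 in KO and 1352 ± 52.1 in WT (SD, n = 3 each), a difference within the spread of the KO libraries.

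Most BAG proteins bind the HSP70 ATPase domain and release its client. Of the 6 BAG genes, BAG2 rose and 5 did not pass (16.7% called, against 26.0% of all genes). BAG2 (ENSG00000112208, chromosome 6, 57172326 to 57189833), an inhibitor of the ubiquitin ligase STUB1, measured 28.2, 34.8 and 31.4 CPM in the KO libraries and 19.1, 21.0 and 18.4 CPM in the WT libraries, a change of 0.69 ± 0.11 (edgeR adjusted p = 0.000793). All KO libraries were higher than all WT libraries, and BAG2 stayed past the threshold in each of the 17 alternative settings (adjusted p at most 0.0205). RAB23 and an antisense RNA overlap BAG2 on the opposite strand. BAG1, BAG3, BAG4, BAG5 and BAG6 had log2 fold changes from -0.23 to 0.08. BAG3, the stress-induced partner of HSPB8, had 21.7, 17.7 and 19.7 CPM in KO and 18.8, 17.7 and 19.5 CPM in WT, with fully overlapping groups (0.08 ± 0.11, edgeR adjusted p = 0.653). BAG6, which guards proteins that failed to reach their membrane, had, from transcripts with 68.8% to 72.3% of its counts in KO and 64.2% to 64.9% in WT, 141 ± 2.96 TPM in KO and 145 ± 7.01 TPM in WT (SD, n = 3 each), the highest level per length of the family, while BAG2 stood at 7.17 ± 0.776 TPM in KO and 4.65 ± 0.411 TPM in WT. As a sum the 6 genes came to 269 ± 5.82 TPM in KO and 275 ± 3.24 TPM in WT.

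**Figure D3:**
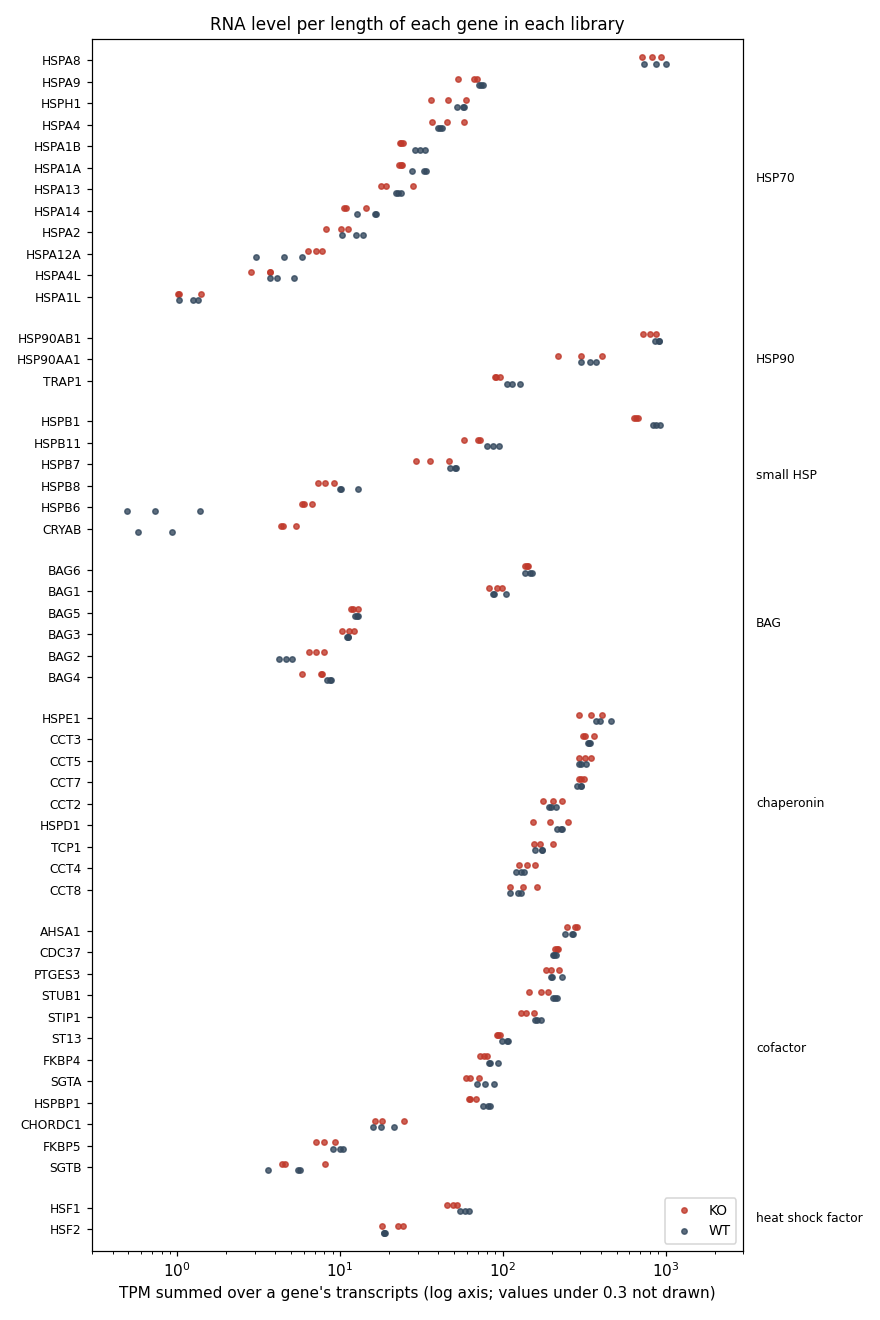
TPM summed over the transcripts of each gene (x axis, logarithmic), 1 point a library, with KO drawn above WT in each row and genes ordered by KO mean within a family; values under 0.3 are not drawn, which leaves out WT replicate 2 of CRYAB. HSPA8, HSP90AB1 and HSPB1 hold the highest levels, while HSPB6 and CRYAB, with the widest gap between genotypes, lie near the low end.

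Of the 9 chaperonin genes 0 passed by edgeR, DESeq2 or limma-voom, and 0 had an unadjusted edgeR p under 0.05. The cytosolic TRiC ring was measured through TCP1, CCT2, CCT3, CCT4, CCT5, CCT7 and CCT8, whose proteins sit side by side in it. The ring subunit gene CCT6A was not in the list and was tested among the further genes below. It measured 256, 330 and 285 CPM in KO and 234, 254 and 272 CPM in WT (0.20 ± 0.09, edgeR adjusted p = 0.160). All 7 listed ring genes had positive log2 fold changes, from 0.03 for CCT3 to 0.21 for CCT8. That held for 6 of 7 with library size in place of TMM and 5 of 7 without KO replicate 2. TCP1 measured 193, 247 and 214 CPM in KO and 183, 198 and 206 CPM in WT (0.16 ± 0.09, edgeR adjusted p = 0.246). Its groups overlapped, as did those of the other ring genes. Without KO replicate 1, TCP1 (0.24, adjusted p = 0.0469), CCT4 (0.23, 0.0448) and CCT8 (0.34, 0.0268) passed. As a sum the 7 listed ring genes, without CCT6A, came to 1611 ± 151 TPM in KO and 1561 ± 67.2 TPM in WT (SD, n = 3 each). HSPD1 and HSPE1, the chaperonin and co-chaperonin of mitochondria, are neighbours on opposite strands of chromosome 2 and share a promoter region. HSPD1 measured 255, 384 and 308 CPM in KO and 327, 350 and 371 CPM in WT (-0.14 ± 0.12, edgeR adjusted p = 0.446). HSPE1 measured 74.6, 103 and 86.8 CPM in KO and 89.3, 93.8 and 113 CPM in WT (-0.16 ± 0.12, edgeR adjusted p = 0.391). Both were lowest in KO replicate 1 of all 6 libraries, and HSPD1 passed without KO replicate 2 (-0.31, adjusted p = 0.0213).

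Of the 12 cofactor genes HSPBP1 fell and 11 did not pass (8.3% called, against 26.0% of all genes). HSPBP1 (ENSG00000133265, chromosome 19, 55262223 to 55280383), which releases nucleotide from HSP70 and inhibits STUB1, measured 57.1, 54.1 and 62.1 CPM in KO and 64.8, 70.8 and 71.9 CPM in WT (-0.26 ± 0.08, edgeR adjusted p = 0.0391). The groups did not overlap, but the call was lost when any of 5 of the 6 libraries was left out (KO replicates 1, 2 and 3, adjusted p = 0.0582, 0.0777 and 0.0559, and WT replicates 2 and 3, 0.124 and 0.109) and with length-corrected counts (0.0835). STUB1, the ubiquitin ligase CHIP that marks HSP70 and HSP90 clients for the proteasome, measured 161, 121 and 147 CPM in KO and 174, 165 and 172 CPM in WT (-0.25 ± 0.10, edgeR adjusted p = 0.0827). Its KO libraries were all below the WT libraries, KO replicate 2 farthest, and it passed without KO replicate 1 (0.0117), with a replicate block (0.0264) and with library size alone (0.0429). HSP90 cofactors that did not pass were STIP1, which links HSP70 and HSP90, AHSA1, which drives the HSP90 ATPase, the p23 gene PTGES3, the kinase adaptor CDC37, CHORDC1 and the immunophilins FKBP4 and FKBP5. The others were the HSP70 cofactor ST13 and the small glutamine-rich proteins SGTA and SGTB. The log2 fold changes of these 11, STUB1 included, ran from -0.25 to 0.30. The highest was that of SGTB (0.30 ± 0.12, edgeR adjusted p = 0.104), with 13.9, 17.9 and 16.7 CPM in KO and 12.8, 12.8 and 13.9 CPM in WT, which passed without KO replicate 1 (0.39, adjusted p = 0.024). CDC37 had 238, 234 and 230 CPM in KO and 211, 211 and 225 CPM in WT, groups that did not overlap but differed by little (0.12 ± 0.06, edgeR adjusted p = 0.185).

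Of the 2 heat shock factor genes 0 passed by edgeR, DESeq2 or limma-voom, and 1 (HSF2) had an unadjusted edgeR p under 0.05. HSF1 measured 72.9, 61.1 and 68.7 CPM in KO and 73.6, 77.9 and 74.6 CPM in WT (-0.16 ± 0.08, edgeR adjusted p = 0.197). HSF2, which can pair with HSF1, measured 30.8, 38.2 and 31.8 CPM in KO and 25.5, 27.6 and 30.8 CPM in WT (0.27 ± 0.11, edgeR adjusted p = 0.115). The libraries of each gene did not overlap between genotypes, lower in KO for HSF1 and higher for HSF2, with a gap of less than 1 CPM each. Such a separation was present for 41.7% of all genes. HSF1 acts mainly through changes in its protein, which RNA levels do not show.

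**Figure D4:**
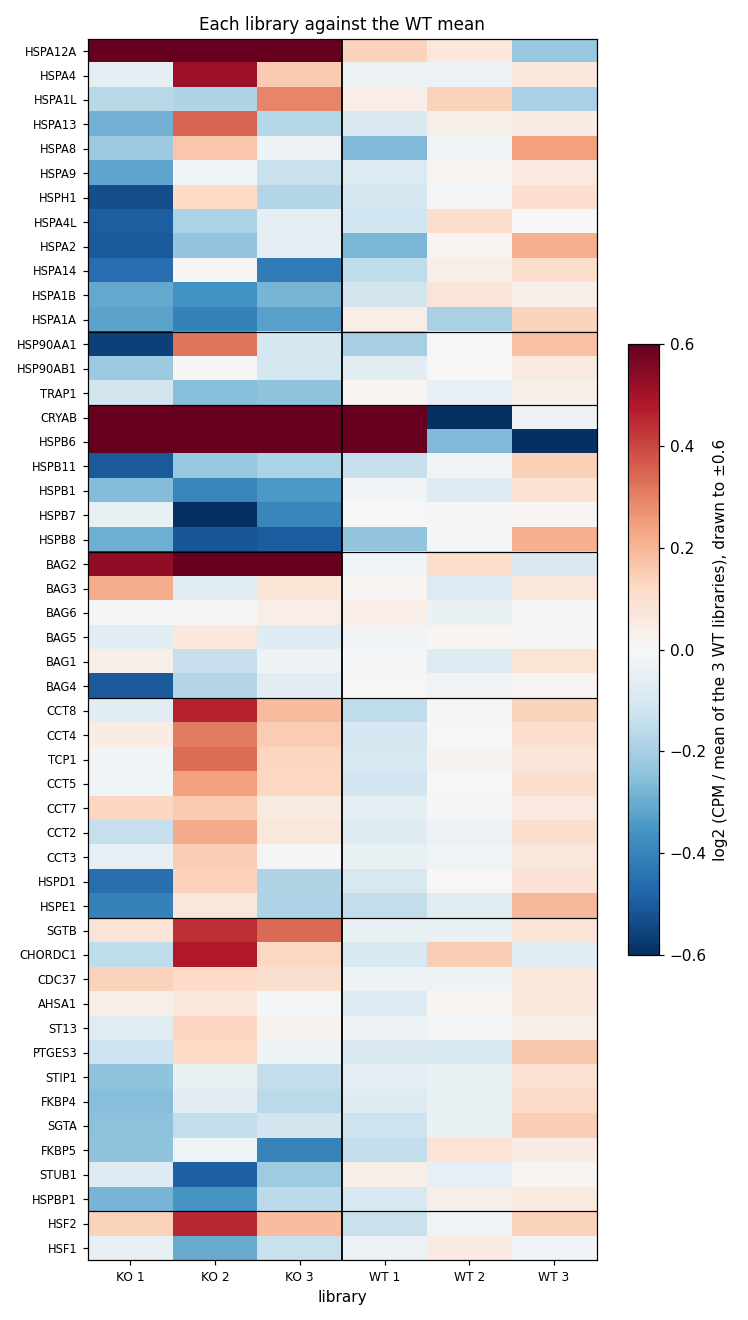
Log2 ratio of each library's CPM to the mean of the 3 WT libraries (colour, drawn to ±0.6) for the 50 genes, KO libraries left and WT libraries right, with lines between families. Columns differ within a genotype: KO 1 is blue and KO 2 red for many HSP70, HSP90 and chaperonin rows, and WT 3 is the reddest WT column in most rows.

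Much of the variation of these genes lay within a genotype, a pattern noticed after the values were seen. KO replicate 2 was more than 1.2 times as high as KO replicate 1 for 22 of the 50 genes (44.0%), which held for 22.7% of genes of more than 10 CPM. KO replicate 2 was the highest KO library for 28 of 50 (56.0%, against 42.8% of those genes), among them all 9 chaperonins. KO replicate 1 was the lowest KO library for 31 (62.0%, against 42.7%), and WT replicate 3 the highest WT library for 37 (74.0%, against 39.5%), among them all 9 chaperonins and all 3 HSP90 genes. The ratio of KO replicate 2 to KO replicate 1 was 1.84 for HSP90AA1, 1.57 for HSPH1, 1.51 for HSPD1 and 1.30 for HSPA8. It was 0.945 for HSPA1A, 0.962 for HSPA1B and 0.911 for HSPB1. It was 1.23 for BAG2, which rose. These genes were picked after their values were seen. Small falls such as those of HSPA1A, HSPA1B and HSPB1 pass the threshold more readily where libraries are close, so no conclusion is drawn from the contrast. What sets KO replicates 1 and 2 and WT replicate 3 apart was not tested.

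The windows before HSPA8 and HSP90AA1 are shown as examples of windows that hold 3 neighbouring units of a heat shock element, the strings GAANNTTCNNGAA or TTCNNGAANNTTC. They lie at chr11:123062137-123062386 for HSPA8 and, for the second of the starts that RefSeq gives for HSP90AA1, at chr14:102087045-102087294, both on the minus strand of GRCh38.p14. Capitals mark pairs and runs of units.
HSPA8: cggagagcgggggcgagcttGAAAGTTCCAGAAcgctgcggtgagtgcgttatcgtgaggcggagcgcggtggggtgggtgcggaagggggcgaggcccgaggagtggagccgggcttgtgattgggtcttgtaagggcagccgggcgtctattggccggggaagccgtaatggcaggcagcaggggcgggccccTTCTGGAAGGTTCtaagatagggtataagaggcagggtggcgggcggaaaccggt
HSP90AA1: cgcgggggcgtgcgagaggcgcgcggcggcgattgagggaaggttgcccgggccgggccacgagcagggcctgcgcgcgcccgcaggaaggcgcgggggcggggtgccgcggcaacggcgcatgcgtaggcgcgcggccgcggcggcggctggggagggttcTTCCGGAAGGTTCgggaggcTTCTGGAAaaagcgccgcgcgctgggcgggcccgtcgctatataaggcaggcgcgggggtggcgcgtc
RefSeq promoter windows, from 250 bases before to 50 after each start, were matched for 44 of the 51 genes (62 windows). CRYAB, HSPA14, FKBP4, STUB1, ST13, HSF1 and BAG4 had no entry in the table. A pair of units was present in at least 1 window of 19 of the 44 genes (43.2%), against 16.2% of 27305 genes with a window. A run of 3 units was present for 6 (13.6%), against 0.608% of all genes: HSPA6, HSPA8, HSP90AA1, HSP90AB1, HSPD1 and CHORDC1. The runs of HSP90AA1 and HSPD1 lay only in window 2 of the gene, and those of HSP90AB1 only in window 3. Exact strings alone were counted, so units with a changed base were not found. Of the 5 genes with a run that could be tested 0 passed by edgeR, DESeq2 or limma-voom, and 0 had an unadjusted edgeR p under 0.05. Of the 8 genes past the threshold that have a window, HSPB6, BAG2, HSPA1A, HSPA1B, HSPB1 and HSPB8 held a pair, and HSPA12A and HSPBP1 held none.

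Of 31 further chaperone genes outside these families' list, mainly of the endoplasmic reticulum, prefoldin and the HSP90 cofactors, 29 were tested, with 0 higher, 4 lower and 25 not past the threshold by edgeR. That is 13.8% called, against 26.0% of all genes, of which 11.5% were lower, so the share lower is near that of all genes. The endoplasmic reticulum exchange factor genes HYOU1 (-0.30 ± 0.06, edgeR adjusted p = 0.0054) and SIL1 (-0.40 ± 0.13, 0.0434) fell, as did the collagen chaperone gene SERPINH1 (-0.37 ± 0.07, 0.0016) and the myosin chaperone gene UNC45A (-0.25 ± 0.06, 0.0157). DESeq2 and limma-voom also called 0 higher and 4 lower, and 0 were higher at an unadjusted edgeR p under 0.05. HYOU1 measured 327, 329 and 330 CPM in KO and 376, 406 and 428 CPM in WT. Its KO libraries were nearly equal and all below WT.

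**Figure D5:**
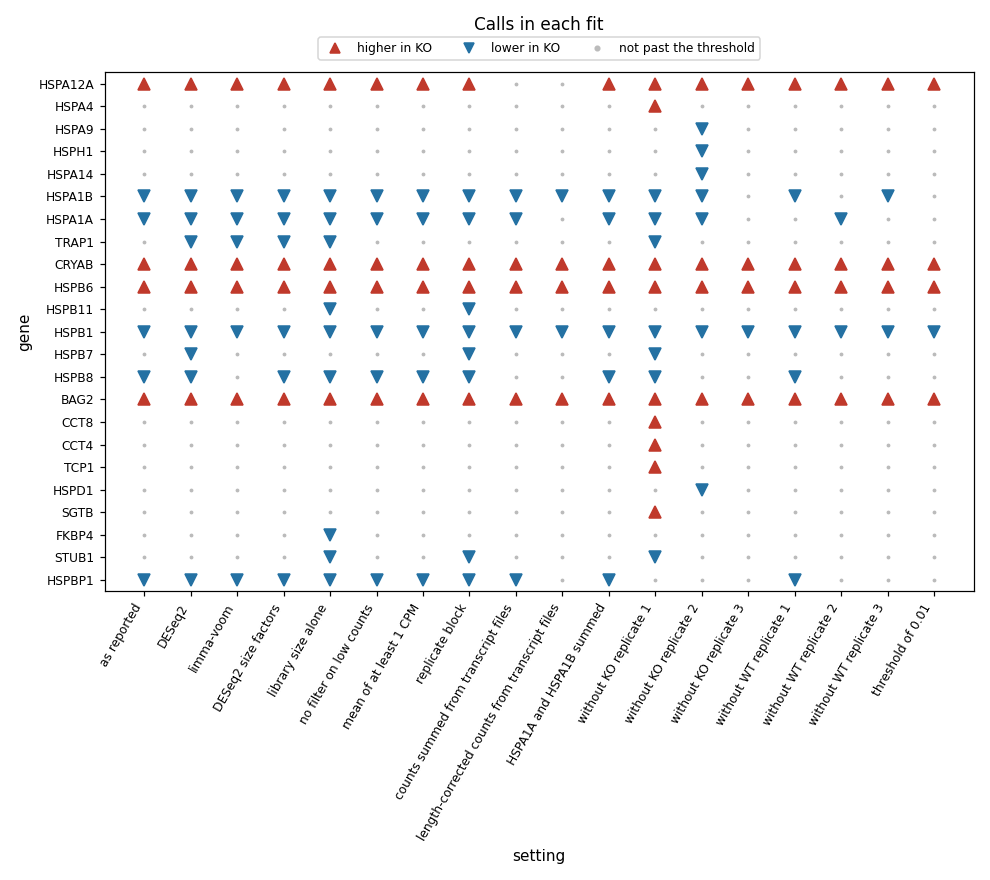
Calls for each gene (y axis) that passed the threshold in at least 1 fit, under the reported fit and 17 other settings (x axis), with upward triangles for higher and downward triangles for lower in KO; where HSPA1A and HSPA1B were summed, both rows show the sum. HSPB6, CRYAB, BAG2 and HSPB1 are called in every column, while HSPB8 and HSPBP1 lose their call in 8 and 7 of the 17 others.

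HSPB6, CRYAB, BAG2 and HSPB1 passed in all 17 other settings, HSPA12A in all but the 2 with gene counts from the transcript files. HSPA1A lost its call in 5 of them, HSPA1B in 3, HSPB8 in 8 and HSPBP1 in 7. None of the 9 changed sign in any of the 17.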

How the data were processed

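RNA of 3 KO and 3 WT SH-SY5Y libraries was sequenced after removal of ribosomal RNA with stranded kits, per the labels' protocols. Per the submitters' processing notes, Salmon 1.10.0, cutadapt 3.5, FastQC and DESeq2 1.42.1 were used with GRCh38.p14; which step each served is not given. The authors' deposited gene table holds expected counts per gene as whole numbers, not normalized. Gene sums of the transcript files were made over the 201667 of 251955 transcripts found in GENCODE release 29. The gene table equals these sums within 1 read for 82.8% to 83.7% of 19584 genes. Sums over all transcripts were not compared with it. The deposited transcript files hold estimated counts, TPM and lengths of 251955 transcripts, per the file headers. Of the gene table's 21071 rows 403 repeats were removed, which left 20668 genes.

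Genes kept by filterByExpr (16403) were TMM-scaled and compared by edgeR 4.0.16 (R 4.3.3) in its quasi-likelihood F-test, two-sided, on genotype alone, with Benjamini-Hochberg adjustment over all genes. SE was the size of the log2 fold change divided by the root of its F. TPM values were summed per gene through GENCODE release 29, which holds 94.2% to 94.6% of the reads but less of single genes. Positions and promoter sequences are from RefSeq on GRCh38.p14. A floor of 3 counts is 0.137 to 0.155 CPM. Replicates of a genotype differed by more than counting noise (chi-square per gene of 4.37 to 22.7), so each library counts as 1 sample. Marker sums are CPM without TMM scaling, and TPM values and their sums were not TMM-scaled either.

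The genes and the further lists were chosen with earlier results of these data known. Named are DNAJC12, every listed gene past the threshold and 12 preset genes whatever their result. Other genes given with values were chosen after these were seen. Alternatives were DESeq2 1.42.0, voom of limma 3.58.1, scaling by library size alone or by the size factors of DESeq2, 2 other filters, leaving out each library, a replicate block, a threshold of 0.01, counts from the transcript files (summed or length-corrected) and HSPA1A with HSPA1B summed. The genes are not independent of each other, and reads of near-identical copies and of overlapping genes can be split by the quantification.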

Additional observations from a re-analysis of the deposited data

How the results depend on the processing

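The counts of chaperone genes higher and lower in KO, 4 and 5 as reported, were most sensitive on the lower side. The lower count was 9 with library size alone, which moves the median gene by -0.06, and 2 with transcript-file counts corrected for length. At a threshold of 0.01 it was 1, namely HSPB1. With libraries left out the higher count ran from 4 to 9 and the lower from 1 to 7. The 9 arose without KO replicate 1, which added CCT4, CCT8, TCP1, HSPA4 and SGTB, and the 1 without KO replicate 3. The lower count was 2 without WT replicate 2 or 3. All genes called numbered 4270 as reported, 2541 with length-corrected counts and 2663 at 0.01, and between 2966 and 4772 with a library left out. The labels do not say whether same-numbered KO and WT libraries were paired. Their deviations from the group means, correlated across genes, gave 0.06, -0.03 and -0.07. Differently numbered libraries gave -0.08 to 0.10, and such values cannot settle whether libraries were paired. With a replicate block 8 genes were lower and 4 higher. Of 867 comparisons of a single gene's result, 819 kept their side of the threshold, 23 gained a call, 25 lost one and 0 called results changed sign. The causes were not tested. Depth limits HSPB6 and CRYAB, whose WT levels rest on 48 and 19 counts.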

Other observations

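The 5 tested genes with a run of 3 heat shock element units in a promoter window (HSPA8, HSP90AA1, HSP90AB1, HSPD1 and CHORDC1) shared an order of the KO libraries, which was noticed after their values were seen. KO replicate 1 was the lowest and KO replicate 2 the highest KO library in 5 of 5, with a median ratio of KO replicate 2 to 1 of 1.51. Among the 38 other genes with a window, KO replicate 2 was the highest in 20 and KO replicate 1 the lowest in 22, with a median ratio of 1.15. Of those, the 8 chaperonin genes without such a run in a window had nearly the same order as the 5. KO replicate 2 was highest in 8 and KO replicate 1 lowest in 7, so the order was also seen without a run in the window. These 8 include HSPE1, which shares a promoter region with HSPD1, and the run of HSPD1 lies outside the HSPE1 window. The difference between the 5 and the 38 was not tested, since the genes share the same 3 libraries.

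The split of HSPA12A reads among its transcripts is given here as values. HSPA12A-201 had an estimated 483, 446 and 524 reads in the KO libraries and 339, 277 and 141 in the WT libraries, or on average 88.5% in KO and 73.8% in WT of the reads on GENCODE release 29 transcripts of the gene. HSPA12A-203 had 50.4, 21.0 and 39.1 reads in KO and 57.6, 42.4 and 69.7 in WT. The WT libraries spread widely for the longer transcript, and no test was made of the split. All GENCODE release 29 transcripts of the gene, of which HSPA12A-201 and HSPA12A-203 are a part, together held 49.8% to 66.0% of its counts in KO. In WT they held 51.1% to 79.4%, and the other counts were not divided by transcript here.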
